A study of Homo sapiens with 30 samples.

Results

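The contacts of the CTCF site S4 on chromosome 9 were compared between cells mutated at S4 and unedited (WT) cells, with S4 as the 4C-seq viewpoint. The libraries were chosen by their titles, 2 of the S4 mutant and 2 of WT, 4 of the 30 libraries of the series. The viewpoint thus carried the mutated site in the S4 mutant and the intact site in WT. All libraries came from K562, an established human chronic myeloid leukaemia line grown in culture with no treatment named in the labels. The series' design text calls the mutated sites depleted of CTCF, but the labels do not give the kind of mutation, the number of clones or whether replicates were separate cultures. The p-values below therefore measure the spread between the 2 libraries of a genotype, which may be technical. In the tests on read counts this spread was estimated over all 10 libraries read from S4. Libraries read from S4 in cells mutated at S2, at S5 and at both S4 and S5, 2 of each, are given beside the result where they bear on it. In the S4-S5 mutant the viewpoint site is mutated as well.

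In 4C-seq, cross-linked chromatin is cut, ligated, and amplified from a chosen fragment, so that reads at another fragment end count ligations between the 2 places. CTCF is a zinc-finger protein that binds an oriented DNA motif and halts the loop-extruding cohesin ring. Pairs of bound sites therefore often mark loop anchors and domain boundaries, and loss of a bound site can let contacts pass beyond it. NOTCH1, the gene at this locus, encodes a single-pass receptor of the Notch pathway, which is cut on ligand binding to release a transcriptional co-activator.

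In hg19 coordinates the S4 viewpoint was centred at 139523746 on chromosome 9. The NOTCH1 promoter viewpoint of the series lay 80.5 kb centromeric of it and the S2 viewpoint, a further CTCF site, 137.9 kb centromeric. SEC16A, INPP5E and PMPCA follow NOTCH1 on the centromeric side in RefSeq's GRCh38 gene order, and EGFL7, AGPAT2 and DIPK1B follow on the telomeric side. SEC16A serves in export from the endoplasmic reticulum, INPP5E is a phosphoinositide phosphatase of the cilium and EGFL7 is a secreted factor of the endothelium. Bins and ends are not placed in exons, introns or UTRs, since the gene tables used here are of another build, and the labels do not place S5. The promoter is the gene target whose contact with S4 is described below, and its 250 bases before the RefSeq start (GRCh38.p14, chr9:136546049-136546298, minus strand) are shown with CpG dinucleotides in capitals.
NOTCH1 promoter: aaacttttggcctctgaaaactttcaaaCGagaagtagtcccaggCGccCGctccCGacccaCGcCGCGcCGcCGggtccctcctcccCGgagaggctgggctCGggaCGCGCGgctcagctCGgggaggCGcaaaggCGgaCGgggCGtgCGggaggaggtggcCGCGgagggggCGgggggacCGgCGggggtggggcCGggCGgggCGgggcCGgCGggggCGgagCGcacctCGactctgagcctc
These bases held 33 CpG and had a GC content of 76.0%, against a median of 11 CpG over the 35116 promoters of the table cut to the same length, of which 8.15% had at least as many. The letters GATC, where DpnII cuts, had 0 matches on either strand, and 35.8% of the promoters had one. The sequences of S2, S4 and S5 are not shown because they were not in the files used here.

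The 2 genotypes differed in depth and in how their reads were spread before any single contact was compared. Chromosome 9 reads numbered 1600859 and 2212517 in WT and 5867828 and 6171632 in the S4 mutant. The 5 kb on either side of the viewpoint, which was masked, took 32.1 and 31.4% of them in WT and 59.5 and 59.9% in the S4 mutant. Near-cis reads, those within 500 kb and outside the mask, numbered 798736 and 1113164 in WT and 2107771 and 2191846 in the S4 mutant. Although the S4 mutant was the deeper, fewer of the 3290 near-cis fragment ends had a read, 47.1 and 48.3% against 57.5 and 57.6% in WT. Its 10 most covered near-cis ends took 18.2 and 18.2% of near-cis reads, against 9.24 and 9.84% in WT. The libraries of the other mutants also had a mask share above that of WT, 56.8 to 90.9%. They had 4681014 to 6824631 chromosome 9 reads, and 41.0 to 45.5% of near-cis ends had a read. Their 10 most covered near-cis ends took 16.7 to 18.8% of near-cis reads. In near-cis reads the S2 mutant, with 424277 and 459876, lay below WT. WT therefore stood apart from every mutant in chromosome 9 reads, in mask share and in the number of ends sampled. The part of these in the contact differences was not tested. Within a genotype the 2 libraries were nearly alike, with r = 0.994 for WT and 0.995 for the S4 mutant over near-cis ends on a log2 scale, and r was 0.622 to 0.626 between the genotypes (across ends, which are not independent replicates).

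Near the viewpoint itself, reads at some masked ends were lower or absent in the S4 mutant, and the 3 such ends described here were so in other mutants too. The most covered end, at 139523875, took 25.5 and 24.4% of chromosome 9 reads in WT and 52.0 and 52.5% in the S4 mutant. Of the 49 masked ends, 1 had over 100 reads in both WT libraries and 0 in both S4 mutant libraries, and 0 showed the reverse. This end, at 139518769 on a blind fragment (a fragment not cut by the second enzyme) from 139518765 to 139519861, had 420 and 437 reads in WT. The S2 mutant had 1 and 0 reads there, the S5 mutant 0 and 1, and the S4-S5 mutant 74 and 132. Reads were thus nearly absent there in the mutants that keep S4, and present but few in the other line mutated at S4. That line had 0.00158 and 0.00193% of its chromosome 9 reads there, against 0.0262 and 0.0198% in WT. A further pair of ends, singled out after their values were seen, missed that rule narrowly. The end at 139527888 had 383 and 400 reads in WT, 0 and 1 in the S4 mutant and at most 2 in a library of any other mutant. The end at 139528386 had 1883 and 2593 reads in WT and 6 and 10 in the S4 mutant, with 8 and 4 in the S2 mutant, 7 and 11 in the S5 mutant and 270 and 476 in the S4-S5 mutant. The last were 0.00577 and 0.00697% of chromosome 9 reads, against 0.118 and 0.117% in WT. Outside the mask, 96 of 1138 near-cis ends with over 100 reads in both WT libraries also had 0 reads in both S4 mutant libraries.

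The S4 mutant held more of its reads close to the viewpoint and fewer far along the chromosome. Of the reads outside the mask, 73.4 and 73.3% were near-cis in WT and 88.7 and 88.7% in the S4 mutant. The groups did not overlap, and the log2 fold of the means was 0.27. With 2 libraries against 2, the exact two-sided permutation test cannot go below p = 0.333, which was the value here and for every library value below whose groups did not overlap. The S2, S5 and S4-S5 mutants had 88.0 to 89.9%, so that against the mean of the S2 and S5 mutants, which keep S4, the difference was -0.00. The near-cis share thus lay above WT in all 4 mutants read from this viewpoint, contrasts that share the WT libraries.

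By distance, the S4 mutant lay above WT in the first 20 kb on both sides and, on the centromeric side, from 20 to 50 kb and from 100 to 500 kb. From 5 to 20 kb, reads were 5.36 and 5.54% of those outside the mask in WT and 9.24 and 9.14% in the S4 mutant on the centromeric side. On the telomeric side of the same distance they were 4.80 and 4.52% in WT and 7.24 and 7.31% in the S4 mutant. Both sides were above WT in the other mutants too at this distance. Their means were 7.89 to 9.49% centromeric and 6.10 to 10.5% telomeric. From 250 to 500 kb centromeric, reads were 7.22 and 7.22% in WT and 10.9 and 10.8% in the S4 mutant. At the same distance on the telomeric side the order turned, with 3.15 and 3.18% in WT and 1.56 and 1.55% in the S4 mutant. Between 50 and 100 kb the groups overlapped on both sides (means of 7.24% in WT and 7.22% in the S4 mutant centromeric, exact permutation p = 1, and of 5.20 and 5.26% telomeric, p = 0.667). Centromeric from 20 to 50 kb the means were 5.81% ± 0.189 in WT and 6.22% ± 0.0512 in the S4 mutant (SD, n = 2). Beyond 500 kb the S4 mutant lay below WT in every centromeric interval, from 3.77% ± 0.0242 against 3.28% ± 0.0348 in the nearest of these. Between 10 and 50 Mb centromeric the mean was 0.937% ± 0.000267 in the S4 mutant against 5.66% ± 0.0258 in WT. Beyond 50 Mb the S4 mutant was lowest relative to WT, with means of 0.224% ± 0.000454 against 2.52% ± 0.0189 (SD, n = 2).

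**Figure D1:**
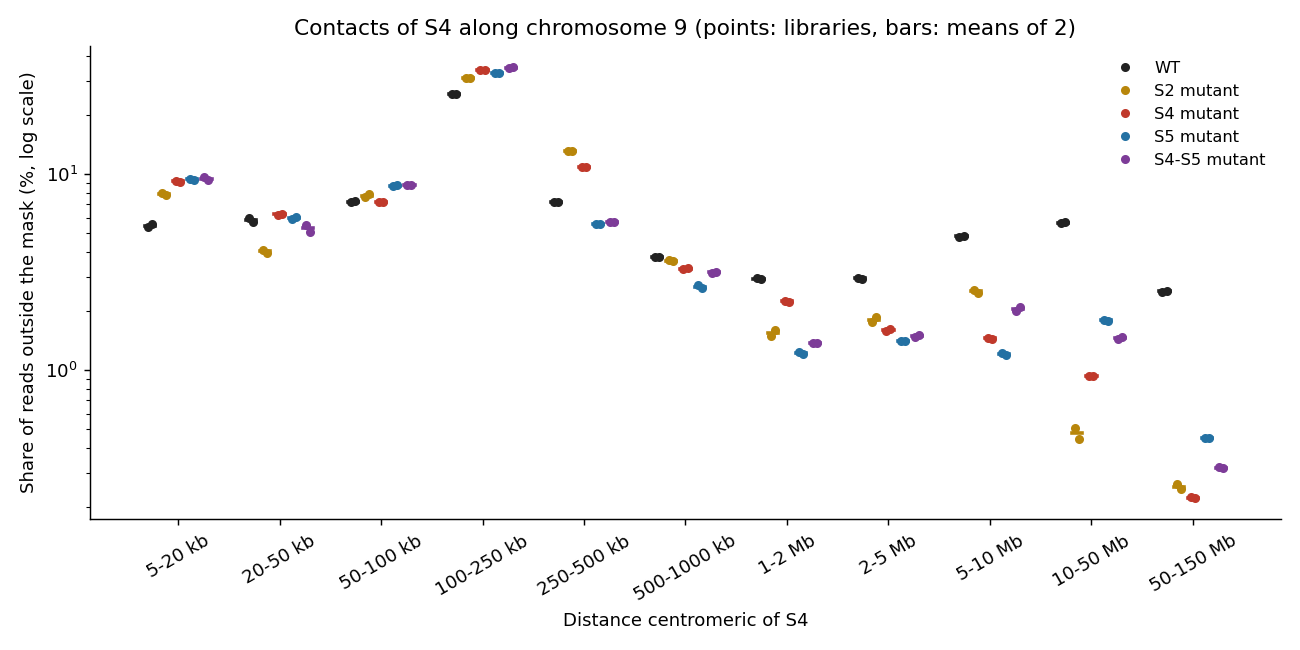
Share of reads outside the mask (percent, log scale) by distance centromeric of S4, with points for libraries and bars for the mean of 2. From 100 to 500 kb the S4 mutant lies above WT, and from 1 Mb outward WT lies above all 4 mutants.

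Single places were compared in 10-kb bins by edgeR's quasi-likelihood test on counts, with the near-cis total as library size. At a Benjamini-Hochberg adjusted p under 0.05, 89 of 97 bins were called (91.8%), 32 higher in the S4 mutant (33%) and 57 lower (58.8%). In 95 bins (97.9%) the groups did not overlap. Since nearly every bin passed, a call says little about any one bin, and the size and direction of the change are given with each. A change of at least 2-fold was reached by 2 of the called bins upward and 27 downward. The median log2 fold change over the 97 bins was -0.36. Other scalings moved this median upward. The shift was 0.27 when scaled to chromosome 9 reads outside the mask, 0.30 with TMM factors and 0.27 with DESeq2's size factors. The split of higher and lower calls then became 42 and 49, 42 and 48, and 42 and 49. Scaling to all chromosome 9 reads, those in the mask included, was not run. With the mean of the S2 and S5 mutants as reference in place of WT, the median was 0.40 and the split turned to 61 higher and 28 lower. The sign was the same under the 4 scalings for 82 called bins, 32 higher and 50 lower.

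**Figure D2:**
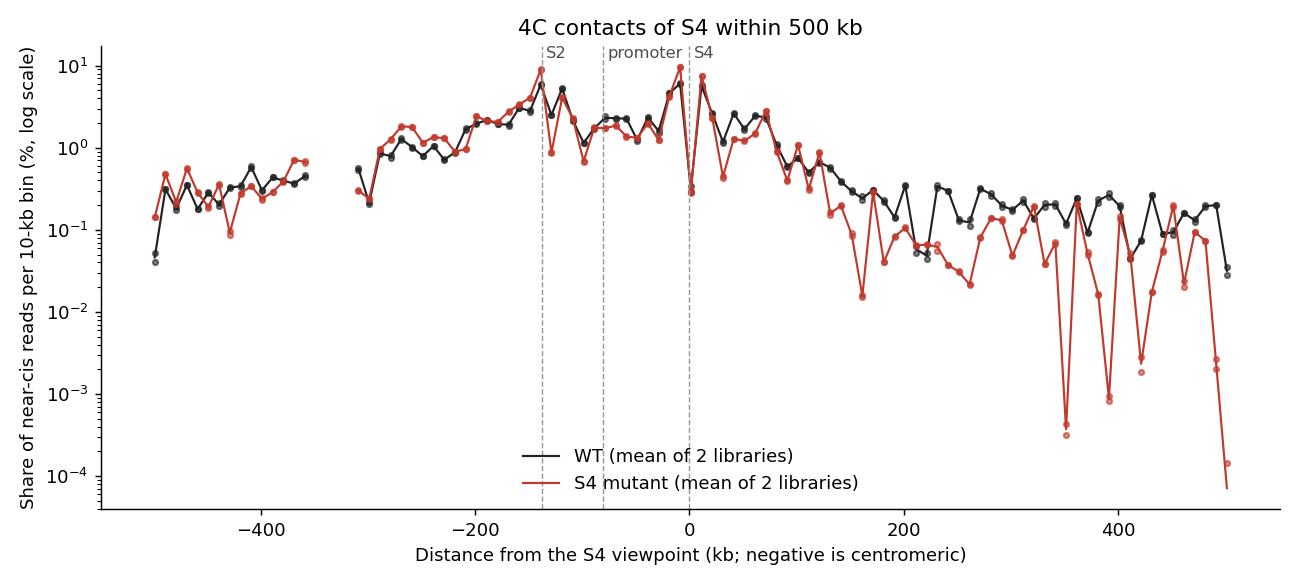
Share of near-cis reads per 10-kb bin (percent, log scale) against distance from the S4 viewpoint (kb), with points for libraries and lines for the mean of 2. Lines break where a bin was not tested, and a library with 0 reads has no point. The S4 mutant peaks above WT at S2, at 8.96 against 5.88%, and lies below WT at most distances telomeric of 250 kb.

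**Figure D3:**
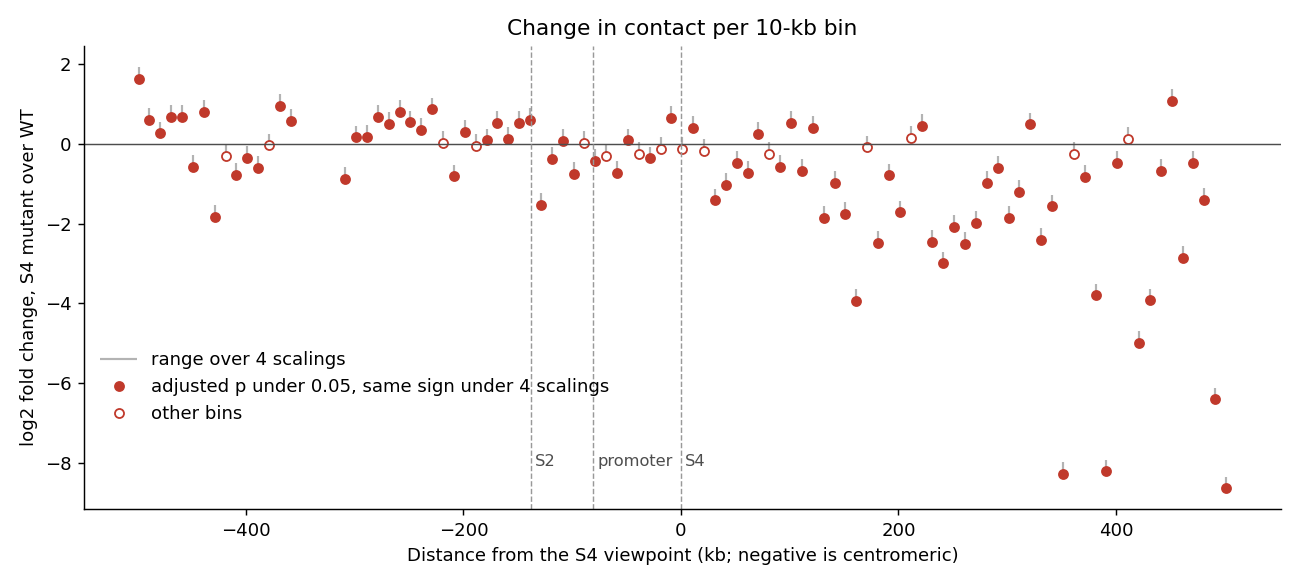
Log2 fold change of the S4 mutant over WT in each of the 97 tested 10-kb bins, by distance from the S4 viewpoint (kb). Grey lines give the range over 4 scalings, filled points the 82 bins called with 1 sign under all 4, and open points the rest.

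The bin holding S2 was the highest outside 50 kb in both genotypes, and higher in the S4 mutant. This bin (139380001 to 139390000) took 5.98 and 5.79% of near-cis reads in WT and 8.87 and 9.05% in the S4 mutant. Both S4 mutant libraries lay above both of WT, and the bin rose by log2 0.61 (SE 0.03, edgeR adjusted p = 1.06e-13). The rise was 0.87 to 0.90 under the other 3 scalings and 0.38 with the most covered ends capped. Against the mean of the S2 and S5 mutants as reference it was also 0.38. The bin took a mean of 4.63% in the S2 mutant, below WT, and the S4 mutant was higher than that by log2 0.95 (edgeR adjusted p = 1.66e-16). It took 10.2% in the S5 mutant, in which the S4 site is intact, and 10.1% in the S4-S5 mutant. The S4 mutant was lower than each of these last 2 (log2 -0.18, adjusted p = 1.68e-06, and -0.18, adjusted p = 3.18e-06, edgeR).

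The rise at S2 rested on few fragment ends. Of the 27 ends in the bin, 14 were higher in the S4 mutant with no overlap, 11 were lower and 2 overlapped, and the median log2 ratio over ends was 0.03. Of the 2068 near-cis ends with a read in any of the 4 libraries, 671 were higher (32.4%) and 1187 lower (57.4%). The end at 139383704, just inside the S2 window, took 0.894 and 0.842% of near-cis reads in WT and 1.94 and 2.02% in the S4 mutant. On the other side of S2, the end at 139388323 took 0.554 and 0.572% in WT and 1.49 and 1.48% in the S4 mutant. Its neighbour at 139388143 took 0.945 and 1.07% in WT and 1.42 and 1.47% in the S4 mutant, and 0.0328 and 0.0342% in the S2 mutant. These 3 ends were the most covered of the bin, a choice made after their values were seen. Together they went from 2.44 to 4.91% (means, log2 1.01), and the other 24 ends went from 3.44 to 4.05% (log2 0.23). Every end of the bin had a read in all 4 libraries, so a count of covered ends could move there only through scaling.

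**Figure D4:**
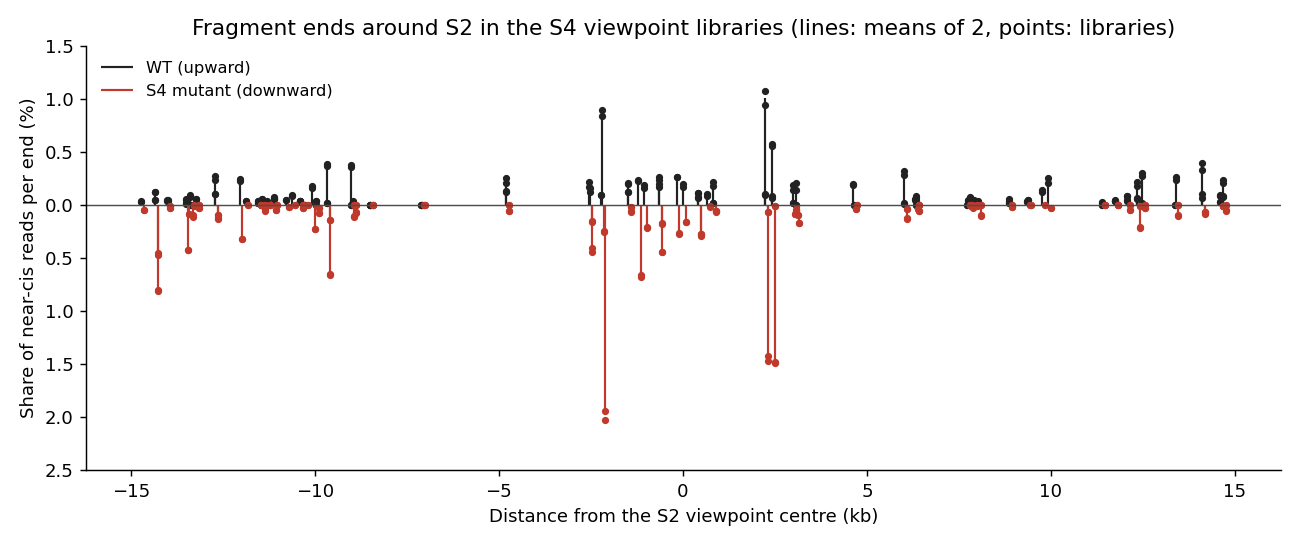
Share of near-cis reads (percent) at each fragment end within 15 kb of the S2 viewpoint centre, with WT drawn upward, the S4 mutant downward, lines for the mean of 2 and points for libraries. The ends at either edge of the S2 window are taller in the S4 mutant, and the ends 5 to 15 kb telomeric are mostly shorter.

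The flanks of S2 moved apart. On the centromeric flank, the bin from 139370001 took 2.87 and 2.74% in WT and 4.07 and 4.08% in the S4 mutant, a rise of log2 0.54 (SE 0.03, edgeR adjusted p = 1.29e-11). On the telomeric flank, towards the promoter, the bin from 139390001 took 2.51 and 2.51% in WT and 0.886 and 0.860% in the S4 mutant. It fell by 1.52 on the log2 scale (SE 0.03, edgeR adjusted p = 1.72e-17), the largest fall among the 5 bins with the highest WT share outside 50 kb. Of the 31 ends of this bin that had a read, 24 were lower in the S4 mutant and 3 higher. Over all near-cis ends with a read, 57.4% were lower and 32.4% higher. The fall was -1.23 to -1.26 under the other 3 scalings, while in covered ends the value was 0.11. Its mean was 0.709% in cells mutated at S2, 1.86% in those mutated at S5 and 2.21% in those mutated at both S4 and S5. The S4 mutant lay below the last of these by log2 -1.34 (edgeR adjusted p = 1.16e-16), so the line that carries both mutations did not share the low value. The next bin, from 139400001, went from 5.28 to 4.09% (means, log2 -0.37), and that from 139360001 from 3.08 to 3.36% (0.13).

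Contact with the NOTCH1 promoter was lower in the S4 mutant. The bin holding it (139440001 to 139450000) took 2.23 and 2.41% of near-cis reads in WT and 1.73 and 1.72% in the S4 mutant. The groups did not overlap, and the bin fell by 0.43 on the log2 scale (SE 0.04, edgeR adjusted p = 6.84e-09). The fall was -0.13 to -0.16 under the other 3 scalings, and with the most covered ends capped it was -0.03 and did not pass the test (adjusted p = 0.278). Less its 3 most covered ends, a choice made after the values were seen, the bin had a log2 fold of -0.22. Over 20 kb around the promoter the share was 3.90 and 4.04% in WT and 3.05 and 3.05% in the S4 mutant, a log2 fold of -0.38. Among the 20 ends of the bin with a read, 12 were lower in the S4 mutant, 4 higher and 4 overlapped, a share of lower ends near the 57.4% of all near-cis ends with a read.

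The promoter bin was lower in the S4 mutant than in each other mutant. Its mean share was 4.32% with S2 mutated, 2.44% with S5 mutated and 2.48% with both S4 and S5 mutated. The direct differences were log2 -1.32, -0.50 and -0.52 (edgeR adjusted p = 5.06e-16, 8.35e-10 and 4.20e-10). The differences use no WT library, but the spread behind the p-values was estimated over all 10 libraries, WT included. Of the neighbours, the bin from 139430001 did not pass the test (1.72 against 1.76%, log2 0.03, adjusted p = 0.375), and that from 139450001 fell from 2.28 to 1.86% (-0.30), which was -0.03 to 0.00 under the other 3 scalings.

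In the bins beside the viewpoint, the change was carried by a few strong ends. The bin from 139510001 took 5.92 and 6.20% in WT and 9.64 and 9.52% in the S4 mutant (log2 0.66, SE 0.03, edgeR adjusted p = 1.06e-13). On the telomeric side, the bin from 139530001 took 5.79 and 5.49% in WT and 7.47 and 7.55% in the S4 mutant (log2 0.41, edgeR adjusted p = 1.25e-10). With capped ends these values were 0.06 and -0.03. In the first of these bins 22 of the 31 ends with a read were lower in the S4 mutant and 8 higher, so the sum rose while most ends were lower, as were 57.4% of all near-cis ends with a read. The ends at 139516161 and 139518567 were among the 5 most covered in both genotypes, and went from 1.63 to 2.64% and from 1.03 to 2.83% (means). The end at 139518004 went from 0.572 to 1.96%, and that at 139532550, telomeric of S4, from 0.787 to 2.22%. In the S2, S5 and S4-S5 mutants the means at 139518567 were 1.82, 2.49 and 2.61%, all above WT. At 139518004 they were 2.79, 2.04 and 2.38%, and at 139532550 they were 2.38, 0.833 and 1.30%, also above WT. At 139516161 they were 0.0591, 1.78 and 1.80%, below WT in the S2 mutant alone. The ends at 139502102 and 139518057, among the top 5 of WT alone, went from 0.980 to 0.744% and from 0.946 to 0.938%. The bin from 139500001 had log2 -0.12. It had 0.15 to 0.18 when scaled to chromosome 9 reads outside the mask, with TMM factors or with DESeq2. The partly masked bin from 139520001, with 4 ends, did not pass the test (-0.11, edgeR adjusted p = 0.0780), and had 0.15 to 0.18 with those scalings.

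Over larger intervals, the S4 mutant had a larger share of its contacts centromeric of S2 than WT. The interval over 100 kb centromeric of S2 took 10.7 and 10.8% of near-cis reads in WT and 13.3 and 13.2% in the S4 mutant (log2 0.30). The 100 kb next to S2 on its centromeric side took 21.0 and 20.7% in WT and 25.5 and 25.7% in the S4 mutant (log2 0.30). Between S2 and the promoter the share was 16.2 and 16.3% in WT and 14.6 and 14.5% in the S4 mutant (-0.16). From the promoter to S4 it was 22.0 and 22.2% in WT and 22.8 and 22.7% in the S4 mutant (0.04), a difference that turned to -0.16 with a 20-kb mask. In none of these intervals did the groups overlap.

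On the telomeric side the S4 mutant lay further below WT with distance. The first 100 kb took 20.5 and 20.6% in WT and 18.8 and 18.7% in the S4 mutant (log2 -0.13, which turned to 0.12 on non-blind ends). From 100 to 250 kb the share was 5.27 and 5.19% in WT and 3.41 and 3.47% in the S4 mutant (-0.60). From 250 to 500 kb it was 4.28 and 4.34% in WT and 1.76 and 1.74% in the S4 mutant (-1.30). The log2 ratio of telomeric to centromeric near-cis reads was -1.22 and -1.21 in WT and -1.67 and -1.67 in the S4 mutant.

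Bins ran the way of the interval in some intervals and not in others. Of the 23 bins over 100 kb centromeric of S2, 15 were higher in the S4 mutant and 7 lower, where 33% of all bins were called higher and 58.8% lower, with a median log2 fold change of 0.36 against -0.36 over all 97. Of the 25 bins from 250 to 500 kb telomeric of S4, 22 were lower and 2 higher, with a median of -1.56, and 15 were lower by at least 2-fold. Between S2 and the promoter 3 of 5 bins were lower and 1 higher, near the shares over all bins. From the promoter to S4, 6 of 8 bins were lower and 2 higher, with a median of -0.27, although the interval's share was slightly above that of WT.

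The other mutants differed in the centromeric interval and were alike in their order against WT in the telomeric one. Over 100 kb centromeric of S2, the S5 mutant had 6.68 and 6.73% and the S4-S5 mutant 6.84 and 6.79%, both below WT, while the S2 mutant had 15.8 and 15.6%, above the S4 mutant. In direct edgeR tests of the S4 mutant, 19 of the 23 bins were higher than in the S5 mutant and 3 lower, where 88 of all 97 bins were called (90.7%), 46.4% higher and 44.3% lower. Against the S4-S5 mutant 21 were higher and 2 lower, where 85 of 97 were called (87.6%), 41.2% higher and 46.4% lower. Against the S2 mutant 9 were higher and 11 lower, where 87 of 97 were called (89.7%), 54.6% higher and 35.1% lower. From 250 to 500 kb telomeric of S4 the S2 mutant had a mean of 1.81%, the S5 mutant 2.88% and the S4-S5 mutant 2.21%, each below the 4.31% of WT, contrasts that share the WT libraries. In the direct tests 14 of the 25 bins were lower in the S4 mutant than in the S5 mutant and 8 higher, and 15 were lower than in the S4-S5 mutant and 6 higher. Against the S2 mutant the order of the bin counts turned, with 16 bins higher in the S4 mutant and 6 lower and a median log2 difference of 3.38. The interval's share did not turn, with means of 1.75% in the S4 mutant and 1.81% in the S2 mutant. Covered near-cis ends had a median of 4.5 reads in the S2 mutant and 387 in the S4 mutant (means of 2 libraries). The 100 most covered took 72.1 and 50.4% of near-cis reads. The differences in these direct tests use no WT library, but the spread was estimated over all 10 libraries, WT included.

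**Figure D5:**
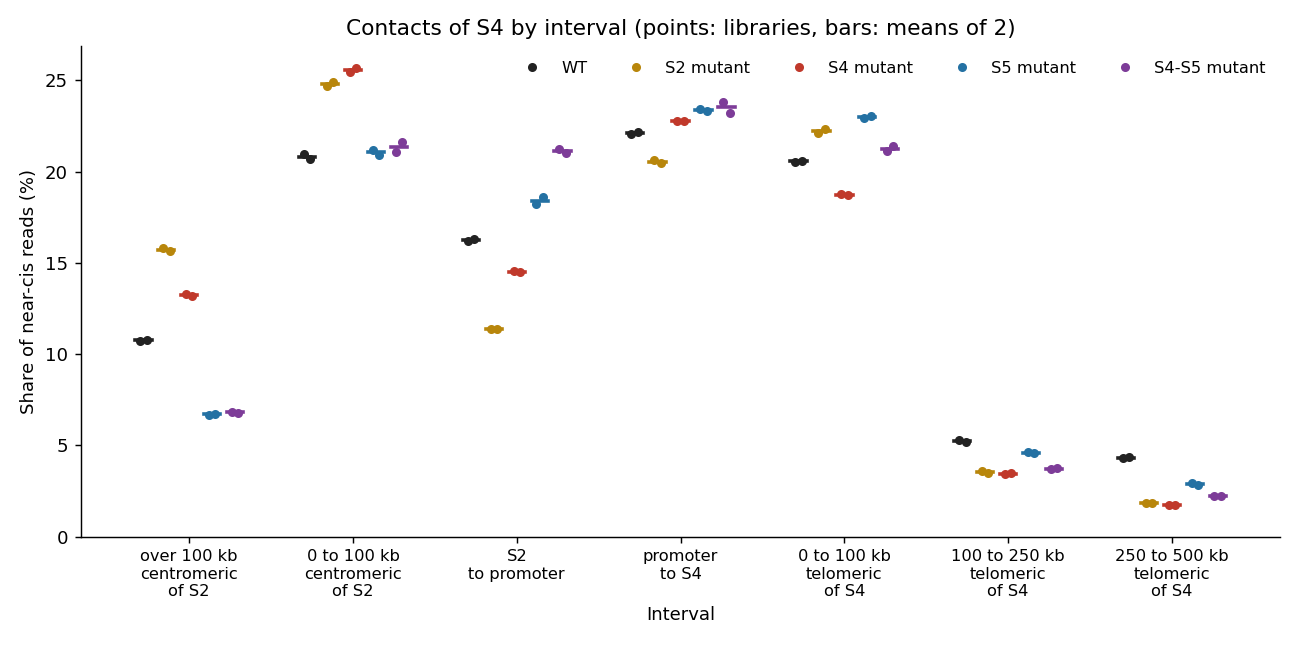
Share of near-cis reads (percent) in 7 intervals around S4 for each genotype, with points for libraries and bars for the mean of 2. Over 100 kb centromeric of S2 the S4 and S2 mutants lie above WT and the S5 and S4-S5 mutants below, and beyond 100 kb telomeric of S4 all 4 mutants lie below WT.

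The bins that rose most lay mainly in the far centromeric interval. The bin from 139020001 rose from 0.0517 and 0.0408% in WT to 0.142 and 0.143% in the S4 mutant (log2 1.64, edgeR adjusted p = 4.51e-12). This bin lies at the edge of the window and had -0.96 against the mean of the S2 and S5 mutants, -0.26 in covered ends and 0.031 in the 1-Mb window, which holds all of it. That from 139150001 rose from 0.365 and 0.368% to 0.716 and 0.715% (0.97). Nearer to S2, the bin from 139260001 rose from 1.00 and 1.03% to 1.81 and 1.77% (0.82) and that from 139290001 from 0.711 and 0.720% to 1.31 and 1.31% (0.87). The others on this side, from 139080001, 139240001 and 139060001, rose by 0.82, 0.69 and 0.67, and the last of these had -0.55 against the mean of the S2 and S5 mutants. In covered ends no bin of these 8 passed the test, and those from 139150001 and 139080001 alone were above 0 (0.39 and 0.19). The single telomeric bin among the 8, from 139970001, rose from 0.0998 and 0.0877% to 0.191 and 0.202% (1.08).

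Of the 8 that fell most, 7 lay over 250 kb telomeric of S4. The bin from 139870001 had 981 and 1264 reads in WT and 9 and 7 in the S4 mutant (log2 -8.27, edgeR adjusted p = 1.39e-17). That from 139910001 had 2026 and 3090 reads in WT and 20 and 18 in the S4 mutant (-8.22). In the bin from 140020001, at the edge of the window, WT had 279 and 317 reads and the S4 mutant 3 and 0. The bins from 140010001, 139940001, 139950001 and 139900001 had log2 fold changes of -6.41, -4.98, -3.93 and -3.80. Nearer, the bin from 139680001 had 2039 and 2545 reads in WT and 341 and 332 in the S4 mutant (-3.95). These bins had reads at few ends, 1 to 14 of 15 to 43 in a WT library, so each rests on few ligated fragments. Against the mean of the S2 and S5 mutants the bins from 139940001, 139680001 and 139900001 were higher, not lower, in the S4 mutant (2.53, 2.22 and 0.96).

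Among the reads far from the locus, most 1-Mb bins took a smaller share in the S4 mutant than in WT. Of 100 1-Mb bins over 500 kb away, edgeR called 95 (95%), 82 of them lower (82%) and 13 higher (13%), with the total of reads over 500 kb away as library size. The split was 66 lower and 25 higher with TMM factors, 56 and 38 with DESeq2, and 30 and 36 against the mean of the S2 and S5 mutants. The bins that rose most began at 122000001, 33000001 and 121000001 (log2 1.42, 1.37 and 1.37), with 2.49, 2.44 and 2.44 under TMM factors and 3.99, 3.94 and 3.94 under DESeq2. In WT and the S4 mutant these values rest on 4 to 13 covered ends per library. The rises are in shares of far reads, and scaling to all reads outside the mask was not run for far bins. Reads outside the mask were 1.86-fold as many in the S4 mutant as in WT. The 3 bins held 3050, 2586 and 3199 reads in the S4 mutant against 1447, 1261 and 1571 in WT (2 libraries together). The first had 563 and 884 reads in WT and 1523 and 1527 in the S4 mutant, and at most 72 in a library of another mutant. The second was also above WT in the S4-S5 mutant (0.265 against 0.182% of far reads, log2 0.54), and below it in the S2 and S5 mutants. The third was also above WT in the S2 mutant (0.293 against 0.224%, log2 0.38), and below it in the S5 and S4-S5 mutants. The bins from 10000001 and 20000001 had 0 reads in both S4 mutant libraries, against 688 and 302 in the WT libraries together. A floor of 3 reads for the pair of libraries makes this at least 182-fold and at least 79.7-fold lower. In WT these reads lay at 2 and 4 ends of the first bin and 2 and 3 of the second. A single end held 72.5 and 81.1% of them in the first and 94.1 and 90.7% in the second. In covered ends neither bin was called (edgeR adjusted p = 0.350 for each). In the other mutants a library had at most 22 reads in either bin, but in the S2 mutant, whose far reads were few, those in the second were 0.0362% of far reads, near the 0.0432% of WT. The bin from 89000001 had 542 and 746 reads in WT and 0 and 1 in the S4 mutant. Against the mean of the S2 and S5 mutants, the bins from 10000001 and 89000001 did not pass the test (log2 -2.49 and -0.39, edgeR adjusted p = 1.00 and 0.836). Far ends with a read numbered 2765 and 2804 in WT and 1643 and 1707 in the S4 mutant, so WT reads were spread over more places. The libraries of the other mutants had 1221 to 1505 such ends.

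Read from the other viewpoints, neither the rise at S2 nor the fall at the promoter seen from S4 was matched at S4. No test was run on these values. With S2 as the viewpoint, the 20 kb around S4 held 9.77% ± 0.0883 of near-cis reads in WT and 9.89% ± 0.160 in the S4 mutant (SD, n = 2). The groups overlapped there, at 9.83 and 9.71% against 9.78 and 10.0%. The 10-kb bin holding S4 alone was lower in the S4 mutant, from 5.30% ± 0.0224 to 4.58% ± 0.0399, while from S4 the bin holding S2 was higher. With the promoter as the viewpoint the same 20 kb held 4.71% ± 0.0118 in WT and 5.05% ± 0.0748 in the S4 mutant. The 10-kb bin holding S4 held 1.90% ± 0.0341 and 2.42% ± 0.0328, and both are the reverse of the order seen from S4.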

How the data were processed

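Per the labels' protocols, fixation lasted 10 min in 2% formaldehyde, DpnII cut the chromatin before ligation, and after a second digestion and ligation 200 ng of template went through 16 cycles of a first PCR. Reads were single, of 150 bp. Per the file headers, the authors deposited whole read counts per chromosome 9 fragment end, with no normalization. The build hg19 and deepTools come from the submitters' processing notes, and no source used here names the aligner, the read filters or the counter. Reads carry no molecular identifiers, so counting bounds cover counting error only.

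The viewpoint was the centre of the most covered 5-kb window over its 10 libraries. Ends within 5 kb of it were masked, near-cis ends (within 500 kb) were summed in 10-kb bins and farther ends in 1-Mb bins, and bins with a mean under 10 reads were left out. All 10 S4 viewpoint libraries entered 1 edgeR 4.0.16 quasi-likelihood fit (R 4.3.3) with near-cis totals as library sizes, without a replicate block. Alternatives of scaling were DESeq2 1.42.0, TMM and chromosome 9 totals outside the mask. Further alternatives were other bins, masks and windows, non-blind, capped (at the 99th percentile) or covered ends, a mutant reference and leaving out each library. Library values were compared by exact permutation. Scripts were tested on simulated data.

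Named bins were the 8 most changed in each direction with no overlap between groups, those holding the promoter and S2 with their neighbours, the 4 nearest the viewpoint, the 5 highest in WT beyond 50 kb, 3 1-Mb bins in each direction and the 5 most covered ends per genotype. The members, rules and lists were chosen with earlier results of these data known.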

Additional observations from a re-analysis of the deposited data

Results flagged for a closer look

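In some of the bins named above, the S4 mutant's change from WT had the opposite sign to that of another mutant, each past edgeR's test and at least 0.5 on the log2 scale. The 2 contrasts share the WT libraries, so the direct difference between the mutants, which uses no WT library, is given. In the bin from 139020001 the S4 mutant rose by 1.64 and the S4-S5 mutant was at -3.27, a difference of 4.91. The edge of the window cuts this bin. As given above, the S4 mutant's change turned in covered ends and was far smaller in the 1-Mb window. In the bin from 139970001 the values were 1.08 in the S4 mutant and -4.07 in the S2 mutant, a difference of 5.15. In the bin from 139260001 they were 0.82 and, in the S5 mutant, -0.81, a difference of 1.63.

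The bin from 139080001, at 0.82 in the S4 mutant, was lower than WT in each other mutant. The S4 mutant exceeded the S2 mutant by 5.92, the S5 mutant by 2.56 and the S4-S5 mutant by 2.18. In the bin from 139240001, at 0.69, it exceeded the S5 mutant by 2.19 and the S4-S5 mutant by 1.53. In the bin from 139060001, at 0.67, it exceeded the S4-S5 mutant by 2.30. The bin from 139870001 ran the other way, at -8.27 in the S4 mutant, with differences of -10.58 from the S2 mutant and -9.01 from the S5 mutant. Of these 7 bins, 5 lie centromeric of S2, and 2 lie telomeric of S4. Among the 97 tested bins, 23 lie over 100 kb and 10 within 100 kb centromeric of S2, and 51 telomeric of S4. All 7 came from the lists of the 8 bins most changed in each direction in the S4 mutant against WT. Neither their place nor the size of these differences is independent of that choice.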

How the results depend on the processing

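The count of 89 called 10-kb bins followed the number of bins tested, with 173 for 5-kb bins, 49 for 20-kb bins, 44 within 250 kb and 182 within 1 Mb. Likewise 2-Mb bins gave 52 calls in place of 95. In covered ends edgeR called 0 of 97 bins against WT and 0 against each other mutant (0 at an unadjusted p under 0.05 in each, no other tool run) and 1 far bin (12 unadjusted). Leaving out each library gave 86 to 89 near-cis and 92 to 94 far calls. The same left-out libraries gave log2 folds of 0.27 to 0.27 for the near-cis share, 0.30 to 0.31 for the interval over 100 kb centromeric of S2, -1.31 to -1.29 for 250 to 500 kb telomeric, 0.35 to 0.37 for 20 kb around S2, -0.40 to -0.36 for 20 kb around the promoter, 0.58 to 0.63 for the bin holding S2 and -0.48 to -0.37 for that holding the promoter. The labels do not say that replicate numbers pair libraries. Deviations of replicate 1 correlated at 0.28 between WT and the S4 mutant (-0.20 to 0.57 over the genotype pairs), and a fit with the replicate block called 90 bins, with 0.61 for the bin holding S2.

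Values that turned, and the main ones that lost their call, are given next, and the cause was not tested. In covered ends 19 of the named bins lost their call with the same sign and 13 turned. Against the mutant reference 3 lost it, those from 140020001 (-3.45), 10000001 (-2.49) and 89000001 (-0.39). The bin holding S2 had 0.27 in covered ends and 0.23 less its 3 most covered ends, and that holding the promoter -0.034 with capped ends, -0.13 in covered ends and -0.22 less its 3 most covered ends. The near-cis share turned to -0.0047 against the mutant reference. The first 100 kb telomeric turned to 0.12 on non-blind ends and to 0.041 when covered ends were counted, promoter to S4 to -0.16 with a 20-kb mask and -0.079 with capped ends, and S2 to promoter to 0.13 in covered ends.

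In covered ends the bins from 139020001 (-0.26), 139970001 (-0.61), 139290001 (-0.063), 139260001 (-0.050), 139240001 (-0.025), 139060001 (-0.25), 139950001 (0.20), 139450001 (0.063), 139390001 (0.11), 139510001 (-0.068), 139500001 (0.12) and 139400001 (0.27) and the far bin from 33000001 (-0.088) turned. Against the mutant reference those from 139020001 (-0.96), 139060001 (-0.55), 139940001 (2.53), 139680001 (2.22), 139900001 (0.96), 139450001 (0.19), 139530001 (-0.14) and 139500001 (0.18) turned. With the chromosome 9 total outside the mask, TMM and DESeq2 the bin from 139520001 had 0.16, 0.18 and 0.15 (1.40 on non-blind ends). That from 139500001 had 0.16, 0.18 and 0.15 (0.18 with a 20-kb mask, 0.058 on non-blind ends, 0.0042 with capped ends). The bin from 139450001 had 0.00032 with TMM, that from 139530001 -0.028 with capped ends and that from 139360001 -0.17 on non-blind ends.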
